A study of Mus musculus with 8 samples.

Results

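Untreated rKO1 Treg cells, in which Brg1 had been deleted and not restored, were compared with Treg cells of 2 Brg1-sufficient, non-inflamed controls. The comparison used 3 of the 8 libraries of the study, 1 per group. WT Treg cells came from mice labelled R26CAG-FlpoER, BrgF/+ and Foxp3YFP-Cre/+, so that they kept 1 intact Brg1 allele after Cre. Mosaic Brg1-sufficient Treg cells came from females labelled BrgF/ΔR, and the label gives these cells as Foxp3+/+, that is, cells that had not used the Cre allele. Untreated rKO1 Treg cells were labelled BrgF/deltaR and Foxp3YFP-Cre/YFP-Cre with no treatment, meaning no tamoxifen (TAM). All carried R26CAG-FlpoER, were labelled C57BL/6, were 3 to 4 weeks old, and gave RNA from CD4+ CD25+ cells sorted from spleen and lymph node (LN). The study's methods also gate Treg cells on YFP, the reporter in the Foxp3 locus, but its results describe mosaic Brg1-sufficient Treg cells as YFP−. That control was therefore not selected by the Foxp3 reporter. The effect of this difference in sorting was not tested. The study made the ΔR allele, which rKO1 and mosaic mice carried and WT mice did not, on a mixed C57BL/6 and 129 Sv background and backcrossed it for 3 generations. Whether 1 mouse or several gave a library is not stated in the sources used here. A gene was compared if it reached 1 FPKM (fragments scaled to exon length and to a total per library) in at least 1 of the 3 libraries. It also had to be annotated and not lie on chromosome X or Y. This left 12824 of the 53465 gene identifiers.

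Treg cells are CD4 T cells that hold other immune cells in check and depend on the transcription factor FoxP3. BRG1, encoded by Smarca4, is the ATPase of the BAF chromatin remodelling complex, which opens nucleosomes at enhancers and promoters. Cre in these mice was expressed from the Foxp3 locus, so deletion was aimed at Treg cells. The trapped ΔR allele still transcribes the exons upstream of its cassette. rKO1 mice are described by the study as severely inflamed, whereas WT and mosaic mice are not. Interferons induce overlapping gene sets: type I interferons drive antiviral genes such as Isg15, Rsad2 and the Ifit and Oas families, and interferon-gamma drives genes such as Cxcl9 and the guanylate-binding proteins.

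The labels were first checked against marker genes. Smarca4 (ENSMUSG00000032187, chr9:21616169-21704230) stood at 14.8 FPKM in WT, 12.1 in mosaic Brg1-sufficient and 7.34 in untreated rKO1 Treg cells, and at 7.44 in the Brg1-deleted Treg cells of mosaic females. The untreated rKO1 value was therefore 2.02 times lower than WT (95% counting interval 1.86 to 2.20) and 1.65 times lower than mosaic Brg1-sufficient (1.52 to 1.80). T cell identity was present in every library: Cd4 was at 41.3, 64.3 and 33.2 FPKM and Il2ra, which encodes the CD25 used in the sort, at 52.9, 52.0 and 64.5 FPKM in the same order. Foxp3 was at 20.01, 137 and 47.0 FPKM. The Y-linked genes Ddx3y, Eif2s3y, Kdm5d and Uty were listed at 0 in both controls and reached 11.3, 30.8, 1.91 and 1.90 FPKM in untreated rKO1, while Xist, the RNA of the inactive X, was at 3.21 and 7.77 FPKM in the controls and 0.0315 in untreated rKO1. The rKO1 library thus had the pattern of male cells, although its label gives 2 Foxp3YFP-Cre alleles and Foxp3 is X-linked. Brg1 deletion, inflammation and sex all separate this library from both controls and cannot be told apart here.

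Reads recovered from the FPKM values were 17370979 in WT, 23030904 in mosaic Brg1-sufficient and 16319336 in untreated rKO1, and 1 read on 1 kb of exon was worth 0.0659, 0.0480 and 0.0565 FPKM. With 1 library per group there is no replicate check and no test. The gap between the controls is given as the only distance between Brg1-sufficient libraries at hand. It also holds their differences in genotype and sorting, so it is not a replicate spread. A gene was called when it differed at least 2-fold, on log2(FPKM + 0.1), from both controls in the same direction. The 95% intervals given for folds are exact (Clopper-Pearson) and cover counting error only.

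Of the genes compared, 1031 (8.04%) were called higher in untreated rKO1 than in both controls and 629 (4.90%) were called lower. Without the 2-fold limit, 4722 of the 12824 lay above both controls, 4564 below both and 3538 between them. These counts and shares are the background for each gene list below. The lists were chosen with earlier results of these data known, so a share that differs from this background is not independent support. At least 2-fold differences in either direction were seen for 2840 genes (22.15%) against WT, for 3012 (23.49%) against mosaic Brg1-sufficient and for 1997 (15.57%) between the controls themselves. The median gene differed by −0.03 from WT and by 0.03 from mosaic Brg1-sufficient on the log2 scale, so the deposited scale was centred. The totals implied by that scale were 15185460 in WT, 20812449 in mosaic Brg1-sufficient and 17708305 in untreated rKO1. They lay below the recovered reads in both controls and above them in untreated rKO1. The deposited values may therefore already carry a scaling between libraries, so the centred medians are not an independent check. Scaling to equal FPKM sums moved those medians to 0.35 and 0.32 and the calls to 1791 higher and 382 lower, or from 62.1% to 82.4% of calls higher, while the 20 most abundant genes held 15.6% of the rKO1 FPKM sum and 20.7% and 21.4% of the controls' sums. The calls below keep the deposited scale, and the listed genes that lose their call with equal sums are named with their list. Among called genes with whole recovered reads, 242 of 973 higher and 168 of 588 lower genes had fewer than 20 reads on their high side. Protein-coding genes gave 493 higher and 361 lower calls of 9649.

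**Figure D1:**
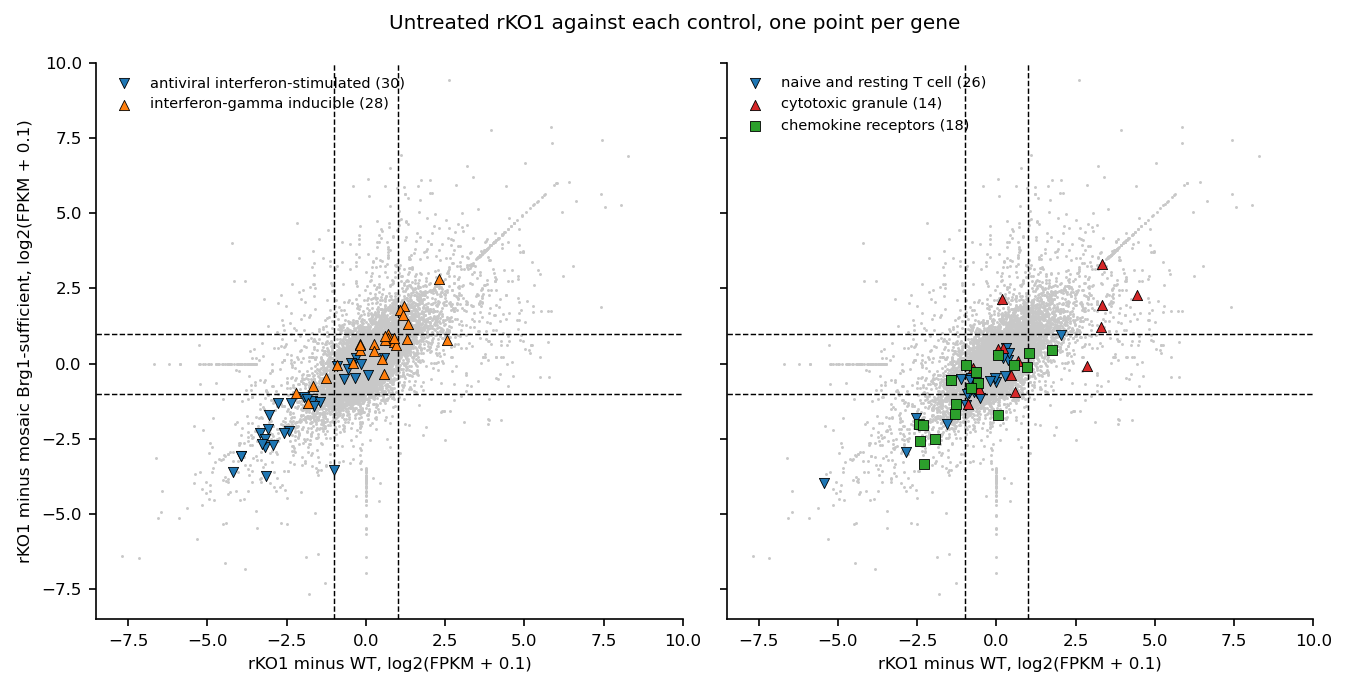
Difference of untreated rKO1 from WT (horizontal axis) and from mosaic Brg1-sufficient Treg cells (vertical axis) in log2(FPKM + 0.1), for the 12824 genes compared (grey points), with gene lists coloured and dashed lines at 2-fold. Of 30 antiviral genes, 21 lie beyond both lines in the lower left corner, and 25 lie below both controls and 1 above. Of 28 interferon-gamma inducible genes, 18 lie above both controls and 5 below both, with Tgtp2 beyond both lower lines.

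Of 30 antiviral interferon-stimulated genes, 21 were called lower in untreated rKO1 than in both controls and 0 higher, against 4.90% and 8.04% of all genes, and 25 lay below both controls. Their median difference was −2.16 from WT and −1.36 from mosaic Brg1-sufficient on the log2 scale, beside 0.47 between the controls. Of 28 interferon-gamma inducible genes, 5 were called higher and 1 lower, and 18 lay above both controls. Their medians were 0.60 and 0.68. Equal sums left 16 antiviral genes called lower and raised the interferon-gamma genes called higher to 12.

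Promoters of genes on both sides are shown because they carry the same short element. The interferon-stimulated response element (ISRE) is bound by interferon regulatory factors. It was searched as GAAANNGAAA on either strand in the 250 bases before the RefSeq start site (GRCm38.p6), and matches are in capitals. They are printed 5′ to 3′ on the strand of the gene: Rsad2 (chr12:26456453-26456702, minus strand), Ifit1 (chr19:34640639-34640888, plus strand) and Isg15 (chr4:156200819-156201068, minus strand), which were lower in untreated rKO1, and Cxcl10 (chr5:92348890-92349139, minus strand), which was higher.
Rsad2: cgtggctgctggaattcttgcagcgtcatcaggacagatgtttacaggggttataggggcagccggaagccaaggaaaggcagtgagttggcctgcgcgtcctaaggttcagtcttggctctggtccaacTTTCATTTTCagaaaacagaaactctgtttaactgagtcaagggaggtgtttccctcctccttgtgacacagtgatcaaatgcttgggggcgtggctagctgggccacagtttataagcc
Ifit1: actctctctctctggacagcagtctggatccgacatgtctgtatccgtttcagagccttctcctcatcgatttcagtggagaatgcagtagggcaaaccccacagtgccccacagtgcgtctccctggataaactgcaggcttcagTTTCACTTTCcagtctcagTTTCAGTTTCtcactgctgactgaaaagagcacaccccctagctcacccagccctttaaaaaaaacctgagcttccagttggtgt
Isg15: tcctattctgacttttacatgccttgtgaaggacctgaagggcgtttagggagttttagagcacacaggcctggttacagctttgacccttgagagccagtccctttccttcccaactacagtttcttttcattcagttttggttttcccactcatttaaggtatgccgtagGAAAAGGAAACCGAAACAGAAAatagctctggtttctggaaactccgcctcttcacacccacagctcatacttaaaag
Cxcl10: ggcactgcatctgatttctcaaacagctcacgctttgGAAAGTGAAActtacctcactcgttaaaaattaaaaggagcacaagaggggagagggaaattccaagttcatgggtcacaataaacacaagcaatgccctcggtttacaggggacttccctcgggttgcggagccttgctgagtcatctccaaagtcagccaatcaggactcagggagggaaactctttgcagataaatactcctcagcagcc
The letters begin 120 bases before the start of Rsad2, 104 and 85 before Ifit1, 78, 72 and 66 before Isg15, where they overlap, and 213 before Cxcl10. Of the 21 antiviral genes called lower, 14 were in the promoter table and 7 of these (50%) held a match, as did 3 of 7 antiviral genes that were not called, beside 617 of 20595 promoters of all genes (3%). Of the interferon-gamma genes, 1 of the 2 called higher and 10 of the 17 others in the table held it. The gamma-activated site, searched as TTCNNNGAA on either strand, was in 2 of the 14, in 1 of the 7, in 0 of the 2 and in 9 of the 17, beside 6.81% of all promoters. A match describes these letters only.

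Among the antiviral genes, Ifi27l2a, an interferon-induced mitochondrial protein gene, was the most abundant. It stood at 9872 FPKM in WT, 8031 in mosaic Brg1-sufficient and 1634 in untreated rKO1, 6.04 (5.93 to 6.16) and 4.92 (4.83 to 5.01) times lower. Isg15, whose product is a ubiquitin-like modifier, went from 463 and 337 to 141 FPKM, and Usp18, which removes that modifier from proteins, from 123 and 44.2 to 17.9 FPKM. For Isg15, untreated rKO1 lay −1.26 log2 units from its nearer control and the controls lay 0.46 apart. For Usp18 these were −1.30 and 1.48, so the controls differed more from each other. 

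Rsad2, which encodes the antiviral enzyme viperin, stood at 3.59, 5.41 and 0.313 FPKM, 11.5 (7.52 to 18.3) times below WT. Genes of the Oas family, some of which encode sensors of double-stranded RNA, were lower together. Oasl1 went from 8.004 and 5.398 to 0.346 FPKM and Oas2 from 3.40 and 1.79 to 0.127 FPKM. Irf7, the factor that amplifies type I interferon responses, was at 80.4, 45.2 and 20.7 FPKM, and Mx1, a GTPase that blocks viruses, at 5.49, 4.11 and 0.511 FPKM.

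The 9 members that were not called included sensors and signalling factors. Stat2 stood at 8.89, 8.01 and 8.01 FPKM, Irf9 at 35.1, 25.3 and 25.5, and Ifih1, which encodes the RNA sensor MDA5, at 3.08, 2.15 and 2.48. Parp14 was the only antiviral member above both controls, at 8.23, 10.9 and 12.3 FPKM. Isg15, Ifit2, Ifit3, Irf7 and Xaf1 lost their call with equal sums, and Ifit3 also with scaling by trimmed mean of M-values (TMM). Ifit3 was at 6.19 FPKM in WT against 36.3 in mosaic Brg1-sufficient, and its near-copy Ifit3b at 31.8 and 17.6, so the split of reads between these copies is uncertain.

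Calls were fewer among the interferon-gamma inducible genes, and most were higher. Cxcl9, a chemokine that draws CXCR3-bearing T cells, was at 0.983, 0.653 and 5.22 FPKM, 5.32 (3.87 to 7.46) and 7.998 (5.75 to 11.4) times higher. Cxcl10, which acts on the same receptor, stood at 21.7, 15.9 and 48.8 FPKM. Nlrc5, the transactivator of MHC class I genes, was at 8.95 and 8.90 FPKM in the controls, which were nearly equal, and at 22.5 in untreated rKO1. Gbp4 and Gbp8 reached 40.6 and 50.1 FPKM from 17.5 and 23.5 in WT and 10.6 and 14.4 in mosaic Brg1-sufficient; their annotated exons overlap, so they are not separate measurements. Irf8, a factor of the interferon regulatory family, stood at 7.02, 9.83 and 17.2 FPKM, above both controls without reaching 2-fold from each. The exception was Tgtp2, an interferon-inducible GTPase with the near-copy Tgtp1, at 41.5, 29.1 and 11.6 FPKM. Of 20 MHC class I presentation genes, Nlrc5 alone (5%) was called higher, beside 8.04% of all genes, and 0 were lower. B2m, the light chain of class I, stood at 17112, 12272 and 8012 FPKM.

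Side by side, the other Brg1-deleted libraries of the study gave the following values. In the Brg1-deleted Treg cells of mosaic females Isg15 was at 331 FPKM, Rsad2 at 4.84, Ifit1 at 48.9 and Irf7 at 45.7. In GFP+ cells, still Brg1-deleted, that were sorted 7 days after rKO1 mice had received TAM, the same genes were at 119, 0.332, 4.68 and 15.4 FPKM. The summed level of the 30 antiviral genes was 11588 FPKM in WT, 9140 in mosaic Brg1-sufficient, 2266 in untreated rKO1, 5601 in mosaic Brg1-deleted and 2389 in the GFP+ rKO1 library. These sums were below both controls in all 3 Brg1-deleted libraries, in the mosaic one by less than in the rKO1 ones. They were mostly Ifi27l2a, which stood at 9872, 8031, 1634, 4452 and 1829 FPKM in the same order. The other genes quoted did not all follow the sum in mosaic Brg1-deleted cells. Rsad2 and Irf7 lay between the controls and Isg15 just below both. Ifit1 lay above both controls, which were at 34.5 and 30.5 FPKM. For the interferon-gamma list the sums were 1935, 1645, 1971, 1606 and 1623 FPKM. Cxcl9 was at 0.572 FPKM in mosaic Brg1-deleted and at 3.34 in the GFP+ rKO1 library.

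**Figure D2:**
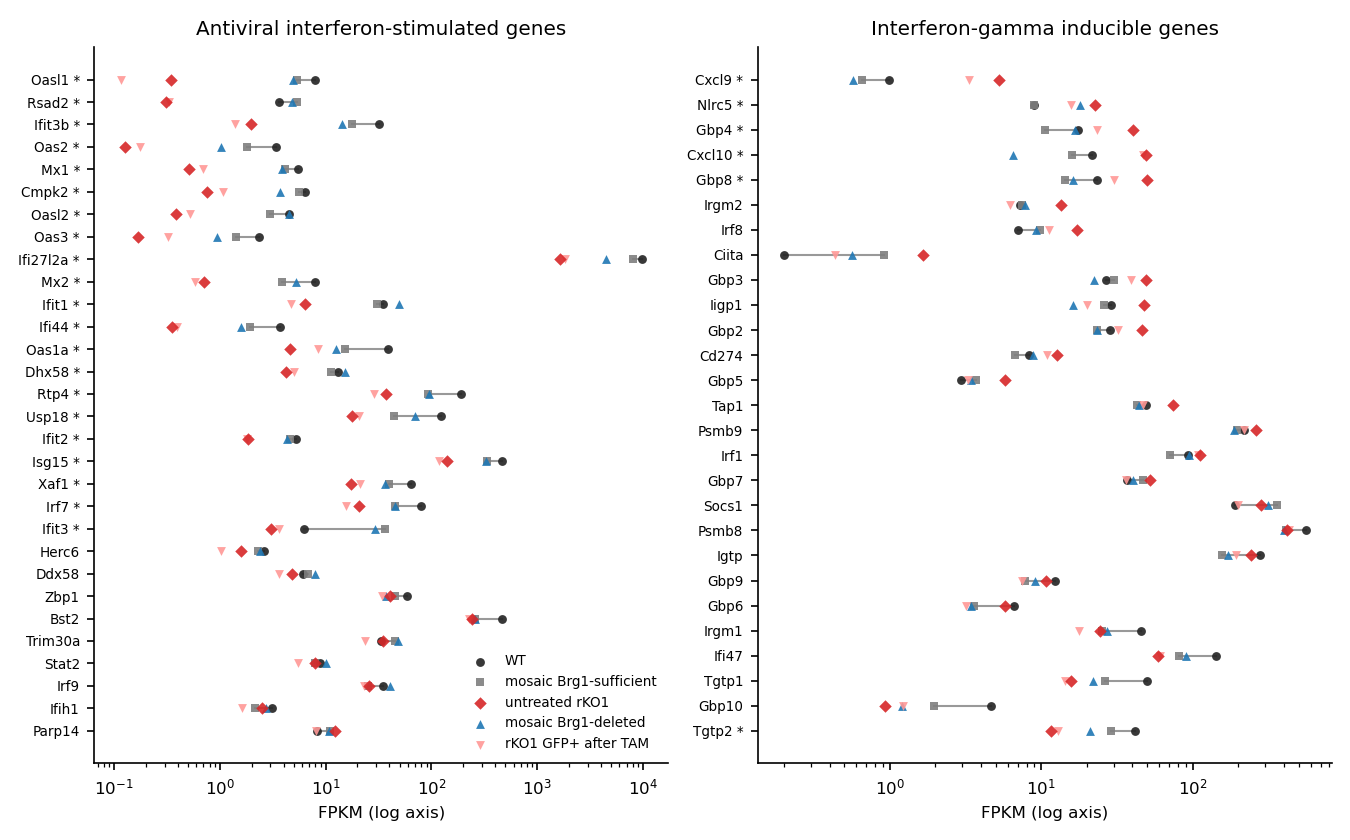
FPKM on a log axis of antiviral (left) and interferon-gamma inducible genes (right), 1 row per gene shown, with grey bars joining both controls and asterisks on called genes. The red diamonds of untreated rKO1 lie left of the grey bars for 25 antiviral genes and right of them for most interferon-gamma inducible genes shown.

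The 15 genes furthest above both controls at 5 FPKM or more had varied products. Retnla, a marker of alternatively activated macrophages, was listed at 0 in WT and stood at 0.161 FPKM in mosaic Brg1-sufficient and 30.9 in untreated rKO1. Ccl24, which attracts eosinophils, went from 0.458 and 0.0371 to 31.9 FPKM, and Ccl8, another chemokine, from 3.61 and 8.74 to 115 FPKM. Fcgr4, an activating receptor for IgG, was at 1.31 FPKM in WT and 21.6 in untreated rKO1, with 0 reads in mosaic Brg1-sufficient. Its fold over that control, computed against a floor of 3 reads, was 188, with a lower 95% counting limit of 152. The antimicrobial peptide gene Camp was at 0.608, 0 and 7.30 FPKM and Car1, a carbonic anhydrase of red cells, at 0.211, 0 and 10.05. All of these but Ccl8 had at most 1 read or were listed at 0 in at least 1 control.

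Among the others, Nkg7, which controls the release of cytotoxic granules, was at 125, 124 and 1249 FPKM, 9.99 (9.51 to 10.5) and 10.04 (9.63 to 10.5) times higher. It was the most abundant of the 15, and the controls were almost equal. Ubd, which encodes a ubiquitin-like protein, went from 5.23 and 0.413 to 49.0 FPKM. Tnip3, which restrains NF-κB signalling, stood at 0.380, 0.757 and 7.55 FPKM. Ermn encodes an actin-binding protein, and its exons overlap Galnt5 on the other strand. It stood at 0.0906, 0.555 and 32.6 FPKM. The nonclassical class I gene H2-M2 was at 0.764, 0.743 and 11.5 FPKM. C1ql2 was listed at 0 in WT, at 0.120 FPKM in mosaic Brg1-sufficient and at 7.23 in untreated rKO1. It also stood at 3.87 FPKM in mosaic Brg1-deleted Treg cells, where Ermn was at 0.370 and Ubd at 0.723. Slc26a10, Lbhd2 and Rpl21 made up the rest, at 9.14, 5.31 and 23.3 FPKM in untreated rKO1. The ribosomal protein gene Rpl21 has many processed copies in the genome, and its value depends on how reads were shared among them.

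The 15 genes furthest below both controls also had varied products. Ly6c1, a surface antigen of memory and some effector T cells, stood at 95.9, 78.8 and 3.33 FPKM, 28.8 (23.5 to 35.5) and 23.6 (19.3 to 29.2) times lower. It lay far outside both controls, while its neighbour Ly6c2 was at 14.1, 2.12 and 2.18 FPKM. Aqp3, a water and glycerol channel, was at 10.3, 5.54 and 0.247 FPKM. Dapl1, which is high in naive T cells, stood at 40.1, 14.4 and 0.832 FPKM. St8sia6, a sialyltransferase gene, was at 8.32, 9.70 and 0.796 FPKM, with nearly equal controls. Ccl20, the ligand of CCR6, went from 16.8 and 10.7 to 0.636 FPKM, and Ass1, which makes argininosuccinate on the way to arginine, from 12.5 and 8.70 to 0.515 FPKM. Oasl1 and Ifit1bl1 were the antiviral genes of the group, the latter at 10.4, 15.3 and 0.571 FPKM.

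The remaining ones were Dkkl1, Prg4, Wfdc2, Chil5, Hba-a2, Try5 and Mir5620. Prg4, the lubricant proteoglycan also called lubricin, stood at 14.8, 5.19 and 0.449 FPKM. Dkkl1 was at 8.94, 11.2 and 0.645 FPKM. Hba-a2 shares its coding sequence with Hba-a1, which was at 554, 155 and 524 FPKM, so its value of 2.12 against 20.5 and 27.7 is uncertain. Try5 had 0 reads in untreated rKO1 and 18 and 211 in the controls, and Mir5620 had 0 against 8 and 4. For Mir5620 the interval against mosaic Brg1-sufficient included no difference. In mosaic Brg1-deleted Treg cells Ly6c1, Aqp3, Dkkl1, Prg4 and Wfdc2 were also below both controls, at 20.7, 0.552, 0.240, 0.766 and 1.29 FPKM. So, by varying amounts, were Dapl1, Ccl20, Ass1, Oasl1, Ifit1bl1 and Chil5. St8sia6 and Try5 lay above both controls there, at 13.6 and 11.7 FPKM. Hba-a2 and Mir5620 lay between the controls.

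**Figure D3:**
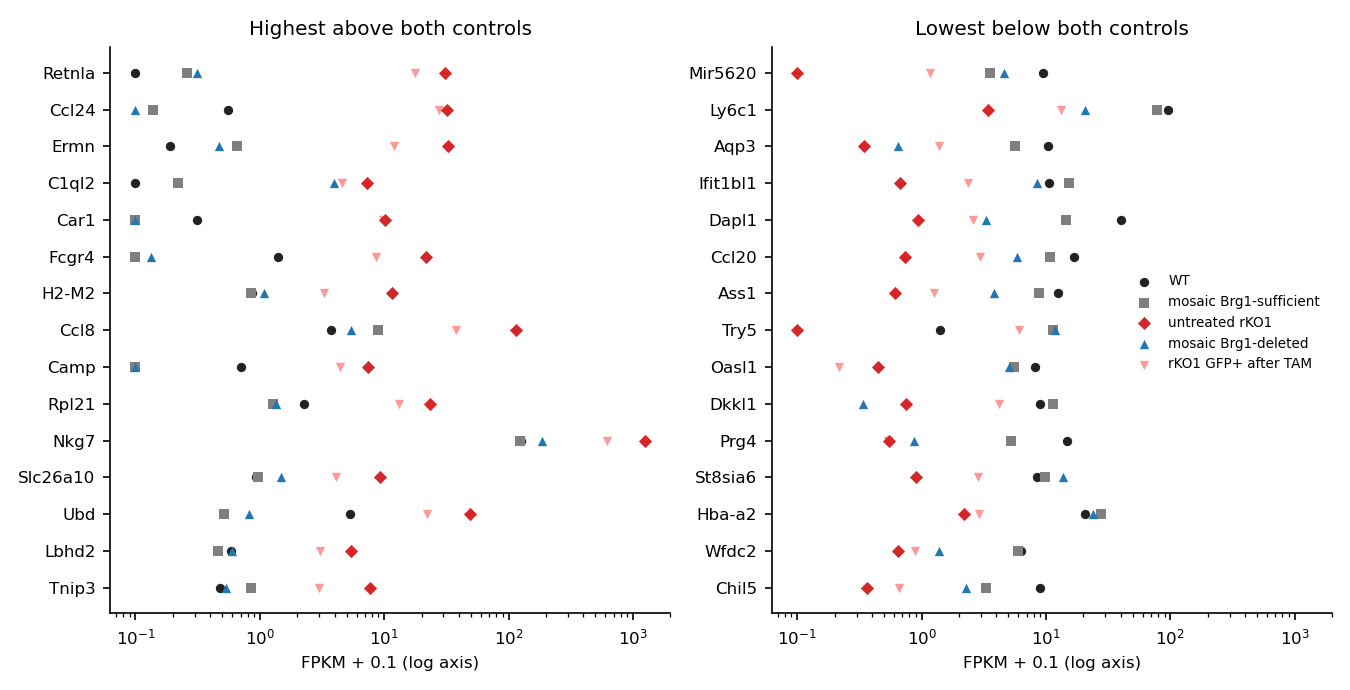
FPKM + 0.1 on a log axis in 5 libraries for the 15 genes furthest above (left) and below (right) both controls at 5 FPKM or more. Nkg7 is highest at 1249 FPKM in untreated rKO1 and stands at 125 and 124 in the controls, and Ly6c1 falls from 95.9 and 78.8 to 3.33 FPKM.

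Cytotoxic granule genes were split by gene. Of 14 compared, 4 (28.6%) were called higher and 0 lower, beside 8.04% and 4.90% of all genes. Gzmb, the serine protease of killer cells, stood at 33.8, 148 and 730 FPKM, 21.6 (20.1 to 23.3) and 4.92 (4.76 to 5.09) times higher, and Gzma at 3.08, 8.21 and 31.8. Besides Nkg7, Gzmf was the last of the 4, at 0.287, 1.52 and 3.69 FPKM. The pore-forming perforin gene Prf1 lay between the controls, at 1.40, 2.58 and 1.97 FPKM, and Gzmc below both, at 11.2, 15.5 and 6.00. The granule core protein Srgn was at 701, 576 and 821 FPKM. Nkg7 and Gzmb were at 187 and 73.3 FPKM in mosaic Brg1-deleted and at 619 and 265 in the GFP+ rKO1 library. Genes of CD8 T or NK cells summed to 14.6, 21.3 and 7.39 FPKM, with Eomes called higher and Cd8b1 lower of 3 compared. Ncr1 was at 0.299, 3.24 and 0.257 FPKM and Klra1, Klra4 and Klra8 were listed at 0 in all 3 libraries.

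Of 26 naive and resting T cell genes, 5 (19.2%) were called lower and 0 higher, beside 4.90% and 8.04% of all genes. Below both controls lay 20, as did 4564 of all 12824 genes compared. Besides Dapl1 and Actn1, Nsg2 went from 12.3 and 13.0 to 1.63 FPKM, 7.55 (6.22 to 9.23) and 7.998 (6.62 to 9.74) times lower. Cd55, which protects cells from complement, was at 7.60, 4.51 and 1.22 FPKM, and S1pr1, the receptor that lets T cells leave lymph nodes, at 75.7, 80.8 and 31.6; the call of S1pr1 was lost with equal sums. The transcription factors were lower by less: Lef1 stood at 21.1, 28.4 and 10.96 FPKM, Foxp1 at 15.9, 16.7 and 8.23 and Tcf7 at 83.9, 109 and 55.2. Il7r, the interleukin-7 receptor, lay on the other side at 11.6, 24.8 and 48.5 FPKM, as did Bcl2 at 34.2, 29.3 and 42.1. In mosaic Brg1-deleted Treg cells Nsg2 and S1pr1 stood at 22.9 and 155 FPKM, above both controls, and Dapl1 at 3.22.

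Of 38 effector Treg activation genes, 3 (7.89%) were called higher, near the 8.04% of all genes, and 7 (18.4%) lower, beside 4.90%. With equal sums this turned to 7 higher and 4 lower. Penk, which encodes proenkephalin, stood at 62.7, 78.7 and 251 FPKM. S100a6, a calcium-binding protein gene, was at 299, 632 and 1362 FPKM. Tbx21, which encodes the Th1 factor T-bet, was at 2.22, 3.50 and 8.22 FPKM. On the lower side, besides Ly6c1, Ly6a, the Sca-1 antigen, went from 714 and 538 to 144 FPKM. S100a4, Anxa1, Anxa2 and Tgfb1 were also lower, with Anxa2 at 46.5, 45.5 and 19.5 FPKM, and all but Anxa1 of these lost their call with equal sums. Ly6a and Ly6c1 are themselves interferon-responsive. Several classical activation genes lay above both controls without a call: Icos was at 21.7, 40.1 and 73.6 FPKM, Il10 at 17.3, 9.79 and 34.4, Ebi3 at 20.5, 23.5 and 43.6 and Batf at 185, 193 and 251.

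Among 23 Treg identity genes, Ikzf2 and Plagl1 (8.70%) were called higher and Nrp1 (4.35%) lower, shares near the 8.04% and 4.90% of all genes. With equal sums 4 were called higher and 1 lower, and with a pseudocount of 1 Plagl1 lost its call. Ikzf2, which encodes Helios, stood at 28.9, 37.1 and 89.3 FPKM, 3.09 (2.99 to 3.18) and 2.40 (2.34 to 2.47) times higher. Nrp1, a surface marker of thymus-derived Treg cells, was at 10.1, 8.02 and 2.40 FPKM. Ctla4 was at 56.1, 51.5 and 88.2 FPKM and Tnfrsf4, the OX40 receptor, at 770, 765 and 1390, both above the controls by less than 2-fold.

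Of 29 coinhibitory and costimulatory receptors and ligands, 4 (13.8%) were called higher and 3 (10.3%) lower, beside 8.04% and 4.90% of all genes. With equal sums 10 were higher and 1 lower, and with a pseudocount of 1 Havcr2, Tnfsf14 and Lag3 lost their calls. Cd160, an inhibitory receptor gene, stood at 8.08, 9.66 and 27.1 FPKM. Fasl, the ligand that triggers death through Fas, was at 3.88, 3.77 and 11.6 FPKM. Havcr2, which encodes TIM-3, was less abundant, at 0.387, 1.17 and 2.74 FPKM, and Tnfsf14 stood at 3.51, 2.64 and 7.59. Pdcd1, which encodes PD-1, went from 36.0 and 26.9 to 9.92 FPKM, and Lag3 from 1.41 and 5.45 to 0.589. Cd226, at 21.5, 11.6 and 4.72 FPKM, and Lag3 lost their calls with equal sums. In the GFP+ rKO1 library Pdcd1 was at 20.1 FPKM and Cd160 at 23.4.

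Of 18 chemokine and related migration receptors on the autosomes, 7 (38.9%) were called lower and 0 higher, beside 4.90% and 8.04% of all genes. The X-linked receptor gene Cxcr3, outside the comparison, was at least 2-fold above both controls, at 33.8, 44.7 and 95.5 FPKM. Ccr10, a skin-homing receptor, stood at 8.85, 10.1 and 1.60 FPKM. Cxcr5, the receptor for B cell follicles, was at 2.04, 4.31 and 0.339 FPKM. Ccr2, which responds to inflammatory CC chemokines, was at 5.74, 8.47 and 1.42 FPKM. Gpr15, a receptor for homing to the colon, was at 6.33, 5.14 and 1.18 FPKM. Ccr3, Ltb4r1 and S1pr1 completed the set. Ltb4r1 and S1pr1 encode receptors for lipids, not chemokines, and both lost their call with equal sums. In mosaic Brg1-deleted Treg cells Ccr10, Cxcr5, Ccr2 and Gpr15 were likewise below the controls, at 0.244, 0.391, 0.261 and 0.130 FPKM, whereas S1pr1 was above them. Ccr8 and Ccr6 lay between the controls, at 37.4, 80.03 and 73.9 FPKM and at 29.8, 45.3 and 43.6 FPKM.

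Of 14 chemokine ligands, 7 (50%) were called higher and Ccl20 (7.14%) lower, beside 8.04% and 4.90% of all genes. Ccl3 and Ccl4, which attract activated T cells and macrophages, went from 4.90 and 1.004 to 13.3 FPKM and from 26.9 and 11.7 to 70.3 FPKM. Xcl1, the ligand for cross-presenting dendritic cells, stood at 8.69, 12.9 and 27.3 FPKM. Ccl6, a myeloid chemokine, was at 5.80, 0.134 and 13.6 FPKM and Cxcl2, which attracts neutrophils, at 0.350, 0.0465 and 1.61. Cxcl9 and Cxcl10, given above, were the other two. Of 14 integrins and selectin ligands, 2 (14.3%) were called higher and 1 (7.14%) lower, beside 8.04% and 4.90% of all genes. The higher ones were the glycosyltransferases Fut7 and Gcnt1, which build selectin ligands. Fut7 stood at 5.20, 3.02 and 14.9 FPKM and Gcnt1 at 0.745, 1.41 and 3.47. Itga4, the integrin alpha-4 chain, was lower at 6.14, 6.09 and 2.71 FPKM, a call that equal sums removed. With a pseudocount of 1 Gcnt1 and Itga4 lost their calls.

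Of 22 T helper cytokine and lineage genes, 6 (27.3%) were called higher and 1 (4.55%) lower, beside 8.04% and 4.90% of all genes. The higher ones were Tbx21, Eomes, Il4, Il18r1, Il18rap and Lif. Both chains of the interleukin-18 receptor were among them: Il18r1 stood at 4.66, 4.34 and 13.1 FPKM and Il18rap at 0.497, 1.08 and 4.59. Il4 was at 3.65, 2.43 and 10.1 FPKM, and Ifng, not called, at 3.56, 0.853 and 6.89. Il17a and Il22 were listed at 0 in untreated rKO1, from 0.394 and 0.205 FPKM and from 0.119 and 0.649 FPKM. Il4 stood at 40.7 FPKM and Ifng at 15.3 in the GFP+ rKO1 library.

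**Figure D4:**
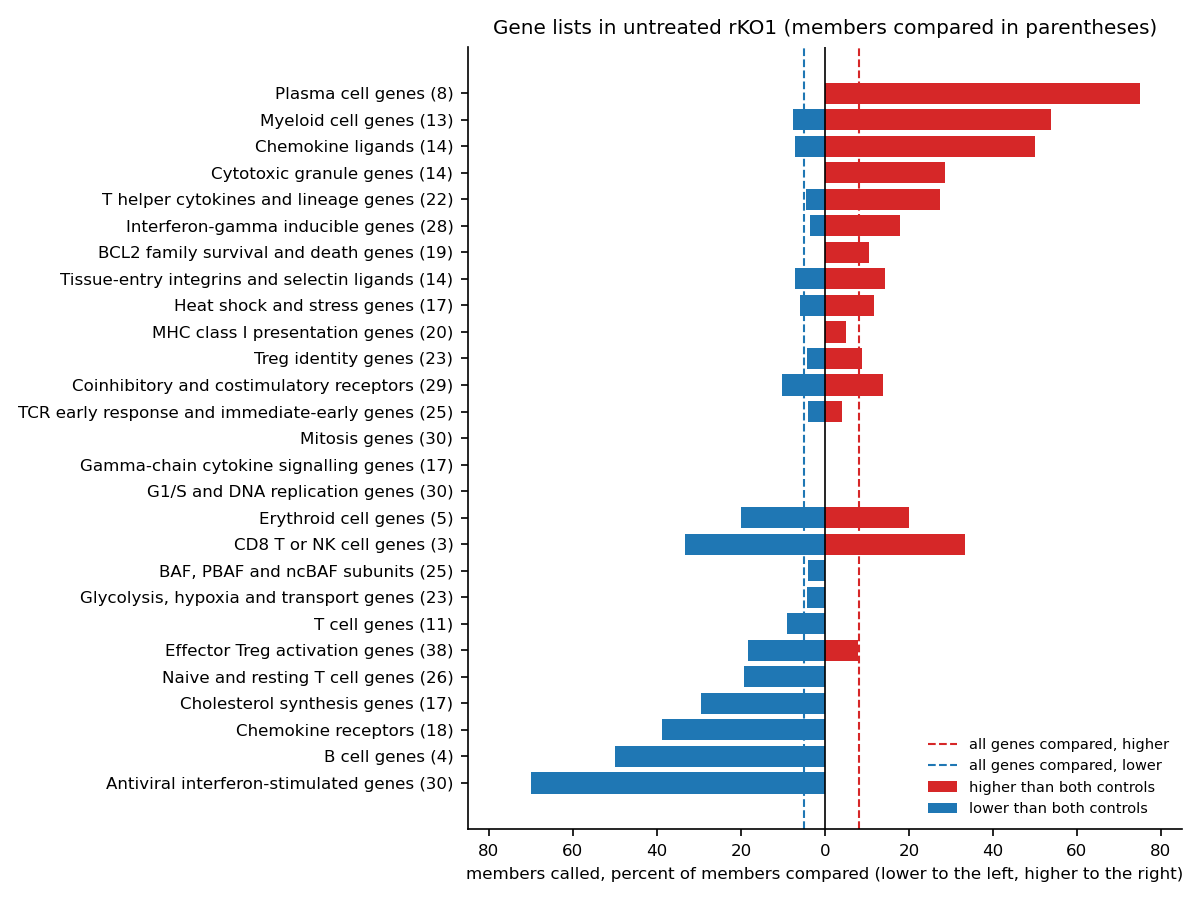
Share of each gene list called higher (red, to the right) or lower (blue, to the left) than both controls, with the number of members compared in parentheses and dashed lines at the shares over all genes compared, 8.04% higher and 4.90% lower. Antiviral genes reach 70% lower, and the cell cycle lists have no call.

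Proliferation genes had 0 calls, with 30 compared for G1/S and DNA replication and 30 for mitosis. Between the controls lay 15 and 20 of them. Mki67 stood at 3.66, 2.85 and 4.51 FPKM, Pcna at 113, 77.3 and 84.6 and Ccnb1 at 7.68, 2.45 and 3.70. Gamma-chain cytokine signalling genes also had 0 of 17 called. Of 17 cholesterol synthesis genes, 5 (29.4%) were called lower, beside 4.90% of all genes, and 0 higher. Below both controls lay 13. Mvk, the mevalonate kinase, was at 4.19, 4.15 and 1.33 FPKM, and Srebf2, the factor that drives the pathway, at 13.3, 33.5 and 5.97. Sc5d and Cyp51, which act in the later steps, were also among them, and Mvk alone of the 5 kept its call with equal sums, and 2 were called lower with a pseudocount of 1. Of 23 genes of glycolysis, hypoxia and transport, Eno1 alone (4.35%) was called lower, near the 4.90% of all genes, and 0 were higher. Below both controls lay 13 and above both 5. Eno1 stood at 237, 251 and 69.9 FPKM. Ldha, not called, was at 595, 470 and 301 FPKM.

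Survival and stress genes were set beside the shares of all genes, 8.04% called higher and 4.90% lower. The shares were 10.5% and 0% of BCL2 family genes and 11.8% and 5.88% of 17 heat shock and stress genes. They were 4% and 4% of 25 immediate-early genes. Of 19 BCL2 family genes, Bcl2a1d and Pmaip1 were called higher, Bcl2a1d, a prosurvival gene with near-identical copies, at 94.2, 63.1 and 193 FPKM and Pmaip1, which encodes the prodeath protein NOXA, at 4.88, 1.997 and 12.7. Mt1, a metallothionein, was at 7.45, 8.60 and 30.6 FPKM and Gadd45g at 109, 57.7 and 246. Dnaja1, a heat shock protein gene, was lower at 86.5, 68.6 and 33.3 FPKM, a call lost with equal sums, as was that of Dusp5 below. Immediate-early genes differed widely between the controls: Fos stood at 162, 7.52 and 28.4 FPKM and Junb at 1658, 174 and 259, and the list's median differed by 1.17 between WT and mosaic Brg1-sufficient. Ier3 was the only member called higher, at 4.5998, 1.15 and 19.5 FPKM, and Dusp5 the only one lower.

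Of 25 subunits of the BAF, PBAF and ncBAF complexes, Actb (4%) was called lower and 0 were higher. The shares of all genes were 4.90% and 8.04%. Smarca4, given above, was not called, and 12 subunits lay below both controls and 9 above. Actb, which encodes beta-actin and is used throughout the cell, stood at 4495, 15844 and 1621 FPKM, a spread between the controls wider than the gap to untreated rKO1. Smarca2, the alternative ATPase, was at 3.15, 4.36 and 5.03 FPKM, Arid1a at 12.3, 14.2 and 16.0 and Smarcb1 at 14.3, 15.7 and 10.1.

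Genes of other cell types were measured because the libraries are bulk, in which fewer cells of a type and less RNA per cell cannot be told apart. Of 8 plasma cell genes, 6 (75%) were called higher and 0 lower, beside 8.04% and 4.90% of all genes. The count of higher genes became 4 of 8 with a pseudocount of 1, where Jchain and Ighg2b lost their calls. With TMM it became 5 of 9, and Ighg2b lost its call. The summed level of plasma cell genes was 106 FPKM in WT, 82.6 in mosaic Brg1-sufficient and 514 in untreated rKO1, most of it Igkc. Ighg1, the IgG1 heavy chain, rose most, from 0.203 and 1.45 to 56.6 FPKM, and Igkc, the kappa light chain, from 95.7 and 73.3 to 422. The defining receptor Tnfrsf17 was listed at 0 in all 3 libraries and Sdc1 stood at 0.121, 0.189 and 0.0445 FPKM. The sum of immunoglobulin V segments went the same way, at 56.4, 33.8 and 319 FPKM. Of 69 compared, 53 were called higher and 1 lower. A segment could enter the comparison by reaching 1 FPKM in untreated rKO1 alone. That share is therefore partly set by the filter and is not independent support. The same filter was used for the plasma cell and myeloid lists. B cell genes were not higher: Cd79a and Cd79b were called lower of 4 compared, Cd79b at 45.8, 21.6 and 5.68 FPKM, and Pax5 was listed at 0 in untreated rKO1. T cell receptor V segments were lower, with 27 of 103 called lower and 7 higher, and a sum of 3055, 2411 and 1599 FPKM. Of 11 T cell genes, Cd3e was called lower, at 99.7, 168 and 48.6 FPKM but not with equal sums, and 8 lay below both controls.

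Of 13 myeloid cell genes, 7 (53.8%) were called higher and 1 (7.69%) lower, beside 8.04% and 4.90% of all genes. At these low levels the count of higher genes fell to 2 with a pseudocount of 1, where Csf1r, Fcgr1, S100a8, S100a9 and Mrc1 lost their calls, and to 1 at 5 FPKM or more. The summed level was 463 FPKM in WT, 109 in mosaic Brg1-sufficient and 233 in untreated rKO1. Fcgr3 was the highest of the 7, at 5.42, 1.49 and 14.2 FPKM. Csf1r, the receptor that marks monocytes and macrophages, stood at 1.79, 0.384 and 3.78 FPKM, and the neutrophil genes S100a8, S100a9 and Elane at 4.07, 4.87 and 2.18 in untreated rKO1. Lyz2, the most abundant member, was at 313, 87.2 and 55.7 FPKM, below both controls, as was Lyz1, which was called lower, while Siglech, Clec9a and Cebpe were listed at 0 in untreated rKO1. The complement genes C1qa and C1qb were at 42.3 and 79.0 FPKM in WT, 6.88 and 8.70 in mosaic Brg1-sufficient and 46.4 and 92.4 in untreated rKO1. WT and untreated rKO1 were thus alike and mosaic Brg1-sufficient was lower. The part of such cells in the higher values of Retnla, Ccl24, Ccl8, Fcgr4 and Camp, and of the chemokine ligands, was not tested. Erythroid genes summed to 691, 218 and 609 FPKM, with Epor called higher and Hba-a2 lower of 5.

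**Figure D5:**
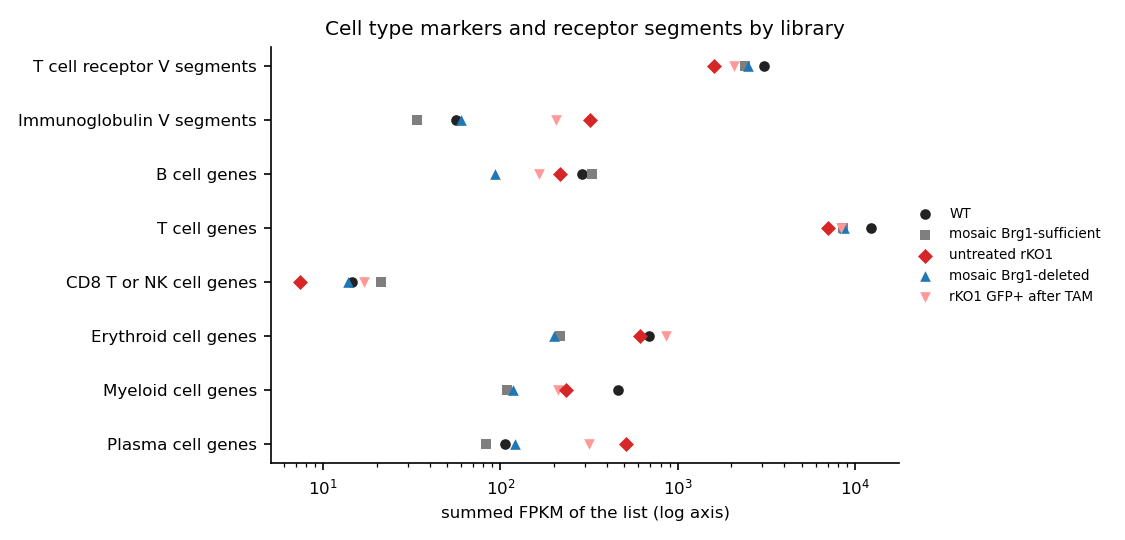
Summed FPKM on a log axis of each cell type marker list and of immunoglobulin and T cell receptor V segments in 5 libraries. Untreated rKO1 is highest for plasma cell genes (514 FPKM) and immunoglobulin V segments (319 FPKM) and lowest for T cell receptor V segments (1599 FPKM).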

How the data were processed

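Poly(A)-primed RNA-seq libraries (SMART-Seq v4, which does not mark the strand) were made from sorted Treg cells, and the authors deposited gene values as FPKM, 1 column per library. The submitters' processing notes name HISAT2 2.0, StringTie 1.3.3b, featureCounts 1.5.0-p3 and the mm10 build. The deposited FPKM were used as they stand. Dividing by exon length recovered whole reads (within 0.05) for 93.4% to 93.7% of values per library, which gave the depths and exact intervals.

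Gene names, positions and exon lengths were taken from GENCODE M21, which lacked 191 identifiers, and promoter sequences from RefSeq. Differences were computed in log2(FPKM + 0.1) with pandas 2.3.3 and SciPy 1.17.1 under Python 3.11.15, and the steps were tested on simulated data. With 1 library per group, count models and p-values were not used. A fold against 0 reads was computed against a floor of 3 reads per library.

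Named genes were the 15 highest and 15 lowest called genes at 5 FPKM or more by the difference from the nearer control, without predicted models, receptor segments and histones, and members of 27 gene lists. Members and lists were chosen with earlier results of these data known. Of 110 called list genes, 32 share exons with another gene, so reads of overlapping or antisense genes cannot be told apart. Alternatives were other pseudocounts, filters on low values, scalings, single controls and gene classes. Libraries from other arms were not used, except for 2 given side by side. A few genes are not reported here.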

Additional observations from a re-analysis of the deposited data

Results flagged for a closer look

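Reads of Y-linked genes appeared in data outside the comparison, which left out X and Y. They were listed at 0 in WT and in mosaic Brg1-sufficient Treg cells. In untreated rKO1, Eif2s3y, a translation initiation factor gene, was at 30.8 FPKM and the RNA helicase gene Ddx3y at 11.3. The histone demethylase genes Kdm5d and Uty were at 1.91 and 1.90 FPKM. In the GFP+ rKO1 library Eif2s3y stood at 16.5 FPKM with Xist at 3.13, and in mosaic Brg1-deleted Treg cells at 0 with Xist at 9.36. Sex and Brg1 deletion cannot be told apart between untreated rKO1 and its controls.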

How the results depend on the processing

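No paired analysis was possible because each group had 1 library. For the same reason no value carries a replicate error. The count of genes higher than both controls (1031) became 567 with a pseudocount of 1, 2244 with no filter beyond a value above 0, 343 at 5 FPKM or more, 1791 with equal sums, 1596 against WT alone, 1806 against mosaic Brg1-sufficient alone and 493 for protein-coding genes. The count of lower genes (629) became 329, 1042, 325, 382, 1244, 1206 and 361 in the same order. Both stayed within 1.5 times with a pseudocount of 0.01 (1087 and 684), TMM scaling (1030 and 640) and X and Y kept (1060 and 643). They also did so in alternatives added after seeing the data, with at least 20 reads on the higher side (731 and 420) and without receptor segments (954 and 576). Interferon-gamma genes called higher became 12 with equal sums. Myeloid genes called higher became 2 with a pseudocount of 1, 1 at 5 FPKM or more and, in an alternative added after seeing the data, 11 against mosaic Brg1-sufficient alone, where naive genes called lower became 8. Antiviral genes called lower ranged from 16 to 21. Of 540 values of named differences, 0 changed sign, but this could hardly have come out otherwise. All but Smarca4 were called genes, a pseudocount cannot reverse an order, and the scalings moved values by less than 2-fold. Of 134 calls, 2 were lost with TMM, 20 with equal sums, 24 with a pseudocount of 1 and 0 with 0.01.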

Other observations

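X-linked genes were outside the comparison. Of 390 that reached 1 FPKM, 22 were at least 2-fold higher in untreated rKO1 than in both controls and 14 lower. Cxcr3, the receptor for the ligands encoded by Cxcl9 and Cxcl10, was among the higher ones. It stood at 2.40 FPKM in mosaic Brg1-deleted Treg cells and at 63.5 in the GFP+ rKO1 library. Long intergenic noncoding RNA genes were called higher in 63 (18.8%) and lower in 33 (9.82%) of 336. For processed pseudogenes these were 72 (7.06%) and 79 (7.75%) of 1020, beside 8.04% and 4.90% of all genes compared.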
